A study of Mus musculus with 12 samples.

Results

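The 10 genes described here, Atf4, Ddit3, Slc3a2, Slc7a5, Asns, Psat1, Phgdh, Trib3, Chac1 and Sesn2, belong to the integrated stress response and its amino acid branch. They were chosen by name, with earlier results of these data known, and make up 10 of the 24541 rows of the gene count table. Polyadenylated RNA was sequenced from 2 fat depots, interscapular brown adipose and posterior subcutaneous (inguinal) white adipose, of mice aged 6 weeks. The mice were wild type or carried 1 or 2 copies of Ucp1-CreEvdr, a transgene in which regulatory sequences of Ucp1, the uncoupling protein of brown fat, drive Cre recombinase. No floxed allele is named in the labels, and the mice, bred from heterozygous parents, lived at room temperature on chow and were killed in the morning. There were 6 groups of depot and genotype with 2 libraries in each. Whether libraries of 1 group stem from different mice, and which depots shared a mouse, is not given, and sex is not given, so the p-values below rest on library-to-library spread that could be technical.

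In the integrated stress response, kinases that sense amino acid shortage, misfolded proteins, viral RNA or heme shortage phosphorylate the translation factor eIF2. This lowers protein synthesis as a whole but raises translation of the Atf4 mRNA, and the ATF4 protein then activates genes for amino acid uptake, amino acid synthesis and tRNA charging. In brown fat the response is best known as a reaction to mitochondrial stress. Because ATF4 is controlled largely at translation, the Atf4 mRNA level measured here is not a measure of ATF4 protein.

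By role the genes fall into 4 sets. Atf4 (chr15:80255184-80257541, plus strand, on mm10) encodes the central transcription factor, and Ddit3 (chr10:127290774-127296288, plus strand) encodes CHOP, a bZIP factor induced in prolonged stress. Slc3a2 (chr19:8706882-8723369, minus strand) encodes the heavy chain, 4F2hc or CD98, that carries amino acid transporters to the cell surface, and Slc7a5 (chr8:121881150-121907694, minus strand) encodes LAT1, a light chain that imports large neutral amino acids. Asns (chr6:7675169-7693254, minus strand) encodes asparagine synthetase. Phgdh (chr3:98313170-98339990, minus strand) and Psat1 (chr19:15904678-15947337, minus strand) encode the first 2 enzymes of serine synthesis from a glycolytic intermediate. Trib3 (chr2:152337422-152344032, minus strand) encodes a pseudokinase that feeds back on ATF4, Chac1 (chr2:119351229-119354381, plus strand) an enzyme that breaks down glutathione, and Sesn2 (chr4:132492032-132510501, minus strand) a leucine sensor that restrains mTORC1. The exons of Ddit3 share 81 bases with Mars, a tRNA synthetase gene on the opposite strand, and the strand setting of the counting is not given in the sources used here, so whether reads from that stretch were told apart is not known, and the Ddit3 level is uncertain to that extent.

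ATF4 binds with a C/EBP partner to a composite element whose core reads TGATGNAA. Promoter windows of 250 bases before to 50 after the start site were found in RefSeq (GRCm38) for 9 of the 10 genes, and the core, searched on both strands, was in 3 of the 9, or 33.3%. Among all 27025 genes with a window, 4.51% held it. The stretches around the 3 matches are shown because these genes, Asns, Trib3 and Chac1, are the ones with the core in the window, with the match in capitals and each sequence written 5′ to 3′ on the gene's own strand. The Asns stretch spans chr6:7693185-7693272 (minus strand), the Trib3 stretch chr2:152344031-152344086 (minus strand) and the Chac1 stretch chr2:119351009-119351096 (plus strand).
Asns: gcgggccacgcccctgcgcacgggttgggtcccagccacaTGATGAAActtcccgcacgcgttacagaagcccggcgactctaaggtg
Trib3: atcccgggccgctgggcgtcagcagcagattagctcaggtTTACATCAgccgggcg
Chac1: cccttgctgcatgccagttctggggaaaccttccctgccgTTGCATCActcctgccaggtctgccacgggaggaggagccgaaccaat
The Asns match began at position -23 from the RefSeq start site, on the gene's strand. The Trib3 match lay at position 14 and the Chac1 match at position -193, both on the opposite strand, where they read TGATGTAA and TGATGCAA. The gene spans given above come from GENCODE and differ in their starts. By those spans the Asns match lies inside the gene and the Trib3 match before its start. A match is a description of the letters, and no binding was measured.

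Libraries held between 15679884 and 31814056 counts, and all 10 genes passed the filter on low counts in both depots. Depot labels fitted their markers: Ucp1 lay at 4391 to 12110 CPM (counts scaled to the effective library size) in the 6 brown libraries and at 0.170 to 228 CPM in white, Zic1, a gene of interscapular brown fat, had at most 1 read in any white library, and Hoxc10, a gene of posterior depots, had no read in brown. Reads of the CRE row were found in every transgenic brown library and no wild type one, and among the 4 transgenic white libraries only in 1-copy library 1, at 3.74 CPM. Some marker lists moved with genotype. The summed level of 18 skeletal muscle genes was 3286 and 1337 CPM in the wild type brown libraries against 8.55 to 24.0 in the 4 transgenic ones, where the muscle genes Myh4 and Ckm were at 0, and it was 2916 CPM in 1-copy library 1 of white fat against 15.1 to 183 in the other 5. The summed level of 14 lymphocyte genes was 15.2 and 19.1 CPM in wild type white fat and 2594 to 3053 CPM in the 4 transgenic white libraries.

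**Figure D1:**
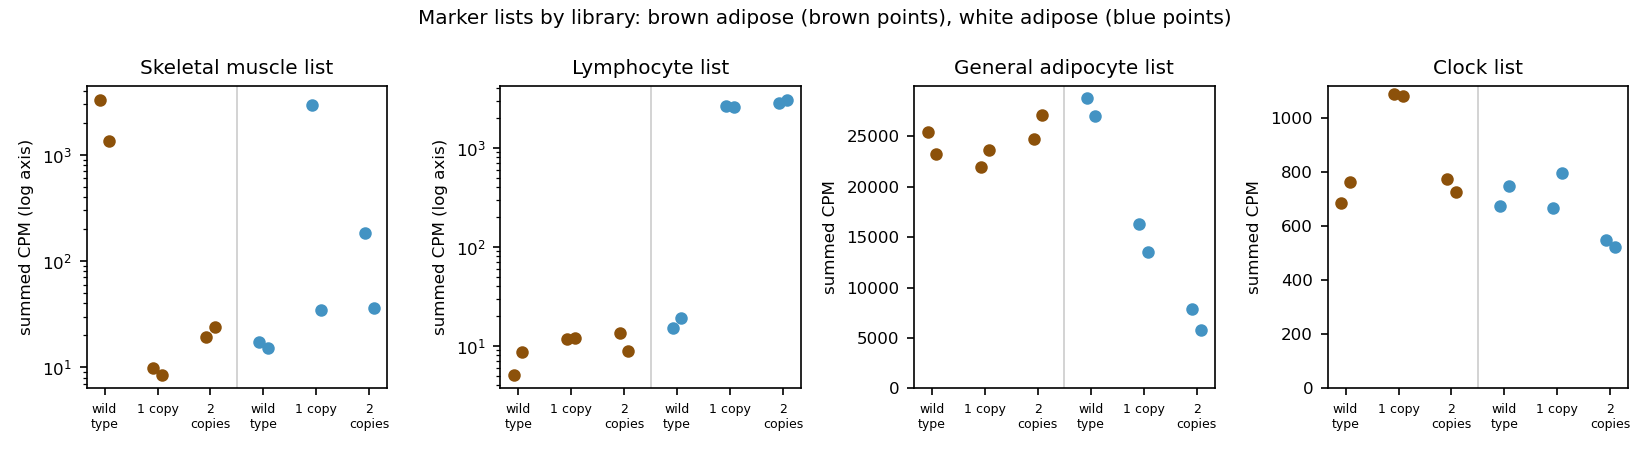
Summed CPM of 4 marker lists (each point is 1 library, brown for brown adipose and blue for white adipose; muscle and lymphocyte panels have a log axis). The muscle list is high in the wild type brown libraries and 1 white 1-copy library, the lymphocyte list is high in all 4 transgenic white libraries (2594 to 3053 CPM), the general adipocyte list is lower at each step of copy number in white fat, and the clock list is high in the 1-copy brown libraries (1089 and 1079 CPM).

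Levels of the 10 genes were first set side by side per kilobase of exon, on the scale of 1 fit of all 12 libraries (CPM per kb). Atf4 ranked first in all 6 groups. In wild type brown fat it stood at 110 ± 7.84 CPM per kb (SD, n = 2), followed by Slc3a2 at 48.4 ± 4.68 and Asns at 33.3 ± 1.14. Ddit3 at 17.0 ± 0.113 and Sesn2 at 16.2 ± 3.80 overlapped each other, and Phgdh, Trib3, Psat1 and Chac1 followed, from 6.21 down to 0.834. Slc7a5 was the lowest of the 10 in each brown group, at 0.208 ± 0.0491 CPM per kb in wild type, so the heavy chain was abundant in brown fat while this light chain was near the detection limit. White fat had another order. In wild type white fat Atf4 stood at 59.5 ± 3.59 CPM per kb and Slc3a2 at 33.0 ± 0.304, then the serine enzyme Phgdh at 29.3 ± 0.811, ahead of Asns at 21.2 ± 3.14 and Psat1 at 13.2 ± 2.94. Slc7a5 ranked 9 of 10 in wild type white fat, at 2.74 ± 0.770 CPM per kb, and 5 of 10 with 2 copies, at 10.5 and 9.56, and Chac1 was the lowest gene in all 3 white groups. In brown fat with 1 copy Slc3a2 stood at 13.8 ± 1.42 CPM per kb, rank 4, below Atf4, Asns and Ddit3.

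**Figure D2:**
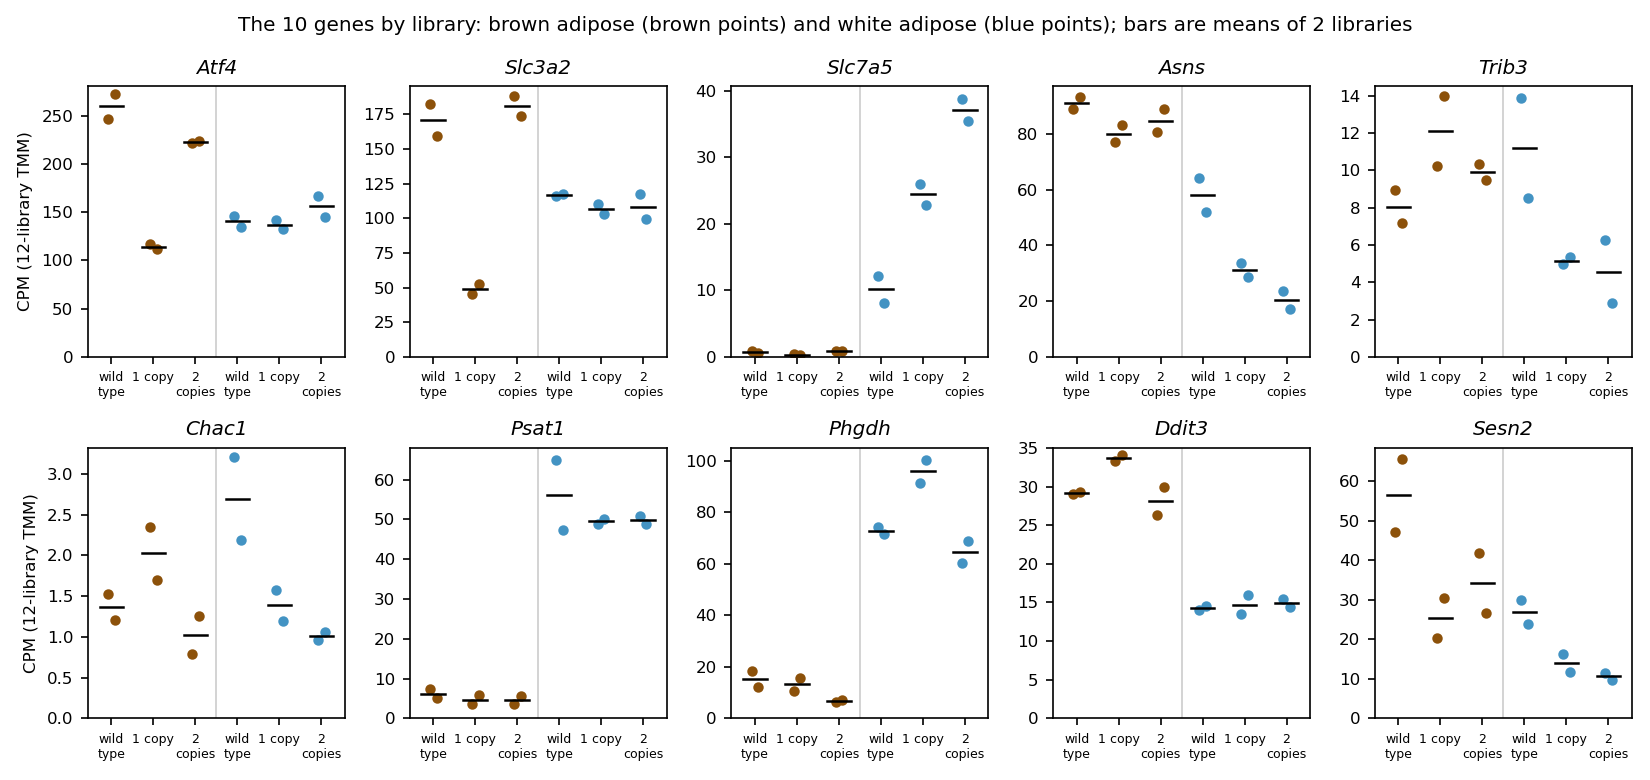
CPM of each of the 10 genes in the 12 libraries, scaled in 1 fit of all libraries (points, with bars at the mean of the 2 libraries of a group). The 1-copy brown libraries are the lowest of all 12 for Atf4 (112 and 117 CPM) and Slc3a2 (45.2 and 52.2 CPM), Slc7a5 climbs with copy number in white fat, and Asns and Sesn2 are lower in transgenic than in wild type white fat.

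Across the 6 groups, on the same scale of 12 libraries but per gene (CPM), the order differed between genes. Atf4 was highest in wild type brown fat (246 and 273 CPM), then in 2-copy brown fat (222 and 224), and lowest in 1-copy brown fat, while the 3 white groups, at 133 to 167, overlapped their neighbours in the order. Slc3a2 was highest in 2-copy and wild type brown fat, which overlapped (means of 181 and 171 CPM), then in the 3 white groups, which overlapped their neighbours (99.1 to 118), and lowest in 1-copy brown fat. Sesn2 was highest in wild type brown fat (47.0 and 65.7 CPM), and its 2-copy brown, wild type white and 1-copy brown groups overlapped their neighbours. Asns and Ddit3 were higher in every brown than in every white library. For Asns the brown groups lay at 77.1 to 93.4 CPM and the white groups at 17.2 to 64.1, with 2-copy and 1-copy brown fat overlapping. This order of Asns rested on the scaling between depots. In CPM of each depot's own fit, wild type white fat, at 77.6 and 62.4, overlapped the brown libraries, at 63.7 to 77.9. In that scaling Atf4 in 2-copy brown fat, at 186.0 and 185.8, lay within the white range of 160.2 to 202. Slc3a2 in wild type brown fat, at 150.4 and 133, overlapped white fat, at 119 to 142.7. Back on the scale of 12 libraries, Ddit3 was at 26.3 to 34.0 CPM in brown and 13.5 to 15.9 in white fat, where its 3 groups overlapped. Psat1, at 47.3 to 65.0 CPM in white and 3.55 to 7.26 in brown fat, and Phgdh, at 60.1 to 100.4 against 6.21 to 18.5, had the opposite order. Trib3 and Chac1 ran through low levels, from 2.87 to 14.0 and from 0.785 to 3.20 CPM over all libraries, and most of their neighbouring groups overlapped.

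The first question was whether the genes differed by genotype in brown fat, where Ucp1 sequences are active. With 1 copy, both the gene of the central factor and the gene of the transporter heavy chain were lower than in wild type, by 2.28-fold for Atf4 and 3.52-fold for Slc3a2, and with 2 copies neither difference was seen. These 2 were the only genes of the 10 called, both lower (edgeR's quasi-likelihood test, Benjamini-Hochberg adjusted p below 0.05 over the 13414 genes tested in brown fat). Of all genes tested 4.07% were called, 1.52% higher and 2.55% lower. The libraries of the 2 groups did not overlap for 8 of the 10 genes, against 54.1% of all genes tested. The median log2 fold change of the 10 was -0.31, and that of all genes tested was 0.01.

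Atf4 stood at 203 and 228 CPM in the wild type brown libraries, 96.5 and 92.2 CPM with 1 copy, and 186.0 and 185.8 CPM with 2 copies (here and below in CPM of the depot's own fit). The 1-copy libraries were the low pair, apart from both other groups, and the 2-copy libraries lay just below wild type. The log2 fold change of 1 copy against wild type was -1.19 ± 0.10 (SE, adjusted p = 0.0024), and it was called in each of the 6 fits that left out 1 library (adjusted p up to 0.0491). Between 2 copies and 1 copy it was 0.98 ± 0.10 (adjusted p = 0.00806). That call was lost without 1-copy library 1 (adjusted p = 0.104), 1-copy library 2 (0.125) or 2-copy library 2 (0.0526). Against wild type, 2 copies gave -0.21 ± 0.10 (adjusted p = 0.304).

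Slc3a2, the heavy chain, had the larger difference. It was at 150.4 and 133 CPM in wild type, 37.3 and 43.1 CPM with 1 copy, and 158 and 144 CPM with 2 copies. Again the 1-copy pair was low and the wild type and 2-copy libraries overlapped. It fell with 1 copy by 1.81 on the log2 scale (SE 0.12, adjusted p = 0.00147). With 2 copies it was 1.91 ± 0.12 above the 1-copy level (adjusted p = 0.00168). Both were called in all 6 fits that left out 1 library (adjusted p up to 0.0212 and 0.0365). For 2 copies against wild type it was 0.09 ± 0.12 (adjusted p = 0.706).

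Ddit3, the CHOP gene, did not follow Atf4 in brown fat. Its libraries were at 23.9 and 24.4 CPM in wild type, 27.5 and 28.1 with 1 copy and 22.1 and 24.8 with 2 copies, and the log2 fold change for 1 copy was 0.20 ± 0.11 (adjusted p = 0.37). Asns, a classical ATF4 target, was at 73.4 and 77.9 CPM in wild type, 63.7 and 68.7 with 1 copy and 67.8 and 73.7 with 2 copies, a difference of -0.19 ± 0.10 for 1 copy (adjusted p = 0.323). For Trib3, the feedback pseudokinase, the values were 7.36 and 5.99 CPM in wild type, 8.43 and 11.5 with 1 copy and 8.68 and 7.89 with 2 copies. Its log2 fold change of 0.59 ± 0.22 with 1 copy had the opposite sign to that of Atf4 and was not called (adjusted p = 0.181). Chac1 was covered by 11 to 32 reads a library in brown fat, and its log2 fold change of 0.57 ± 0.40 with 1 copy was not called (adjusted p = 0.466). Slc7a5 rested on 3 to 17 reads a brown library, and at that depth its values of 0.742 and 0.536 CPM in wild type, 0.375 and 0.176 with 1 copy and 0.778 in both 2-copy libraries gave no call (adjusted p = 0.3 for 1 copy against wild type).

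Sesn2, the leucine sensor gene, was at 38.8 and 54.9 CPM in wild type brown fat, 16.8 and 25.1 with 1 copy and 35.0 and 22 with 2 copies. The 1-copy libraries lay below wild type, but the pairs were wide. The log2 fold change of -1.16 ± 0.31 with 1 copy was not called (adjusted p = 0.115). It was called by DESeq2 (adjusted p = 0.00261) and in the fit of all 12 libraries (0.0454).

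In 2-copy brown fat, edgeR's test called 0 of the 10 genes against wild type, where 1.29% of all genes were called, 0.47% higher and 0.82% lower. At an unadjusted p under 0.05 there was 1, the serine enzyme gene Phgdh, which DESeq2 also called. Phgdh was at 15.3 and 10.3 CPM in wild type, 8.68 and 13.1 with 1 copy and 5.21 and 6.02 with 2 copies. The 2-copy pair lay below all other brown libraries. The log2 fold change against wild type was -1.18 ± 0.27 (adjusted p = 0.0844 by edgeR, 0.00992 by DESeq2, 0.045 in the fit of all 12 libraries). Psat1, the next enzyme of the same pathway, was at 5.99 and 4.29 CPM in wild type, 2.94 and 4.80 with 1 copy and 2.99 and 4.62 with 2 copies, 3 overlapping groups. The groups of 2 copies and wild type did not overlap for 5 of the 10 genes, against 47.9% of all genes.

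In brown fat 2 of the 10 genes were called between 2 copies and 1 copy, Atf4 and Slc3a2, both higher with 2 copies. Of all genes 1.95% were called, 1.24% higher and 0.708% lower. Libraries did not overlap for 6 of the 10, against 58.4% of all genes. Both comparisons use the same 1-copy libraries, so they are not independent of each other.

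Muscle and clock lists moved beside these brown results. The muscle list was high in wild type only. It was at 8.55 to 24.0 CPM in all 4 libraries of the comparison of 2 copies with 1 copy. Its part in the differences from wild type was not tested. Of 16 clock genes, which keep daily time in tissues, 8 rose and 2 fell with 1 copy against wild type in brown fat. The clock output gene Dbp was at 2.85 and 4.51 CPM in wild type, 65.8 and 75.6 with 1 copy and 7.48 and 7.37 with 2 copies. Nfil3, a bZIP repressor in the clock, was at 75.0 and 74.5, 19.9 and 17.8, and 42.9 and 42.2 CPM in the same order. The 1-copy libraries thus stood apart for Dbp, Nfil3, Atf4 and Slc3a2 alike, and the part of clock phase in the differences of Atf4 and Slc3a2 was not tested. The brown adipocyte list, with 0 of 12 called for 1 copy against wild type by edgeR (3 at an unadjusted p under 0.05, 3 by DESeq2), had summed levels of 14483 and 13241 CPM in wild type, 11771 and 10275 with 1 copy and 16533 and 18748 with 2 copies. Between 2 copies and 1 copy 1 of the 12 was called, Elovl3, a fatty acid elongase, higher with 2 copies (2.89 ± 0.37, adjusted p = 0.0408), with 9 at an unadjusted p under 0.05 and 6 by DESeq2. That call was lost without 1-copy library 1 (adjusted p = 0.174) or 2 (0.239) or 2-copy library 1 (0.0514) or 2 (0.0908). The part of this list in the differences of Atf4 and Slc3a2 was not tested.

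The rest of the pathway was read from 8 lists. With 1 copy in brown fat edgeR called 0 of 15 genes of eIF2, its kinases and its phosphatase (6 at an unadjusted p under 0.05, 2 by DESeq2) and 0 of 10 other stress bZIP factors (3 and 2). It also called 0 of 9 tested serine, glycine and one-carbon genes (1 and 1), 0 of 10 proline, asparagine, glutamine and transsulfuration enzymes (0 and 0), 0 of 20 cytosolic tRNA synthetases (3 and 0) and 0 of 16 endoplasmic reticulum (ER) chaperones and unfolded protein response genes (2 and 0). Amino acid transporters had 2 calls among 17 tested. Slc38a2, the SNAT2 carrier of small neutral amino acids and an ATF4 target, was at 168 and 167 CPM in wild type, 100.4 and 81.7 with 1 copy and 126 and 134.5 with 2 copies. It fell with 1 copy by 0.88 on the log2 scale (SE 0.12, adjusted p = 0.0126). Slc36a1, a lysosomal amino acid exporter, rose by 0.70 ± 0.11 (adjusted p = 0.0198). Neither held without 1-copy library 1 (adjusted p = 0.0692 for Slc38a2 and 0.209 for Slc36a1) or 1-copy library 2 (0.116 and 0.129).

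Among 16 tested stress outputs, Bbc3, the cell death gene PUMA, rose with 1 copy in brown fat by 0.93 ± 0.17 (adjusted p = 0.0293). It was not called without 1-copy library 1 (adjusted p = 0.279), 1-copy library 2 (0.131) or wild type library 1 (0.0595). Ddit4l, a relative of the mTORC1 inhibitor Ddit4, was at 5.82 and 2.96 CPM in wild type and 0.312 and 0.410 with 1 copy, and fell by 3.56 on the log2 scale (SE 0.49, adjusted p = 0.0129). The muscle list, at 3286 and 1337 CPM in wild type and 9.81 and 8.55 CPM with 1 copy, moved beside it, and its part in this call was not tested. Without 1-copy library 1 or 2 its adjusted p was 0.149 or 0.106. With 2 copies against wild type, Ddit4l was the 1 gene called in the 8 lists (-3.68 ± 0.49, adjusted p = 0.0299), and leaving out either 2-copy library (adjusted p = 0.12 and 0.102) or either 1-copy library (0.0547 and 0.0553) ended the call. By edgeR 0 genes of the 8 lists were called between 2 copies and 1 copy. At an unadjusted p under 0.05 there were 8 transporters (5 by DESeq2), and Slc38a2, named after its values were seen, had a log2 fold change of 0.52 ± 0.12 (adjusted p = 0.068).

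**Figure D3:**
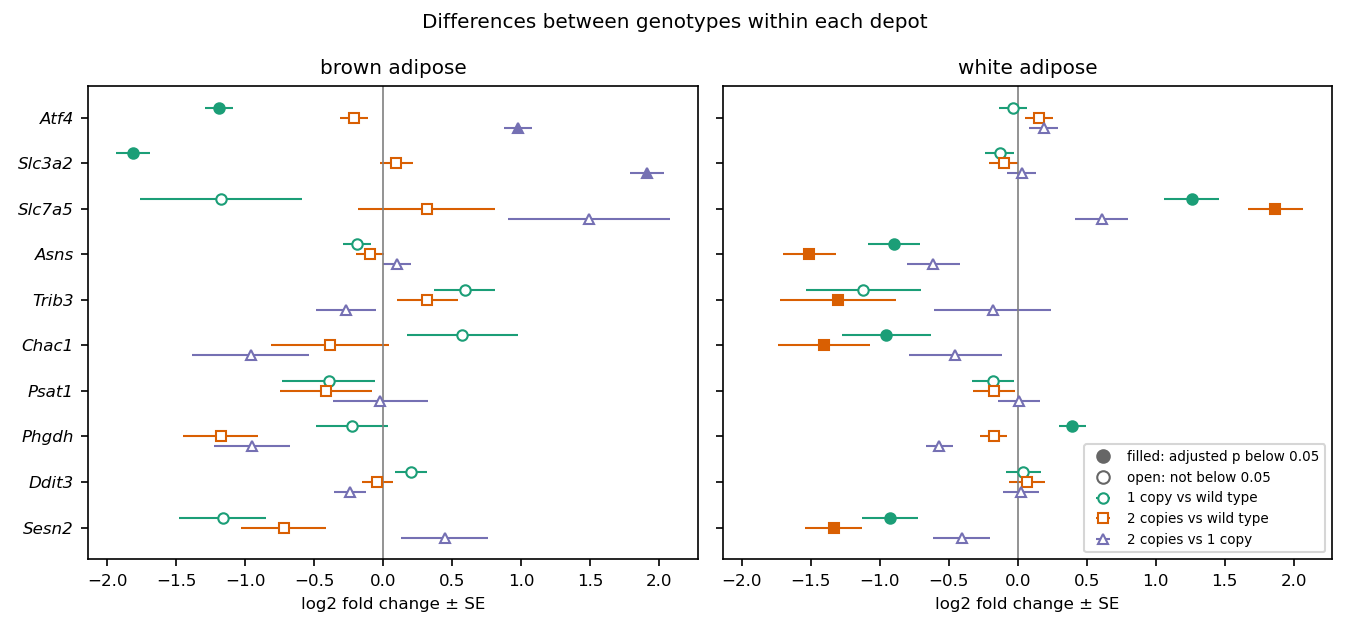
Log2 fold change (x axis, with SE bars) of each of the 10 genes in the 3 genotype comparisons of brown adipose (left) and white adipose (right); filled symbols passed an adjusted p of 0.05. In brown fat only Atf4 and Slc3a2 have filled symbols, at -1.19 and -1.81 for 1 copy against wild type and 0.98 and 1.91 for 2 copies against 1 copy, while in white fat both lie near 0 and Slc7a5, Asns, Sesn2, Chac1, Trib3 and Phgdh carry the calls.

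White fat showed another set of genes. With 1 or 2 copies Slc7a5, the LAT1 light chain, was higher than in wild type, and Asns, Sesn2 and Chac1 were lower. Atf4 and Slc3a2 were not called there. With 1 copy 5 of the 10 genes were called, 2 higher (Slc7a5 and Phgdh) and 3 lower (Asns, Sesn2 and Chac1), against 52% of the 15287 genes tested in white fat, 28.4% higher and 23.6% lower. With 2 copies 5 of 10 were called, 1 higher (Slc7a5) and 4 lower (Asns, Sesn2, Chac1 and Trib3), against 61% of all genes, 32.1% higher and 28.9% lower. The share called among the 10 was therefore no larger than among all genes. Groups did not overlap for 7 of 10 genes with 1 copy (78.5% of all genes) and for 6 of 10 with 2 copies (81.5%). The median log2 fold change of the 10 was -0.16 and -0.17, against 0.01 and 0.01 for all genes.

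The cell makeup of the white libraries moved with genotype. All 14 lymphocyte genes rose in both transgenic groups. All 10 general adipocyte genes fell in both groups, and their summed level was 28837 and 26995 CPM in wild type, 16318 and 13515 with 1 copy and 7905 and 5748 with 2 copies. The muscle list was at 2916 CPM in 1-copy library 1 and 34.9 in 1-copy library 2. In bulk tissue, fewer cells of a type and less RNA per cell cannot be told apart. Of 16 clock genes 9 were called in each transgenic group against wild type. Dbp was at 5.89 and 5.14 CPM in wild type, 26.4 and 44.4 with 1 copy and 19.4 and 25.1 with 2 copies. Nfil3 was at 35.2 and 30.8, 10.6 and 9.39, and 20.5 and 9.53 CPM in the same order. The part of this makeup and of clock phase in the white results below was not tested.

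Atf4 was at 177 and 161 CPM in wild type white fat, 169.9 and 160.2 with 1 copy and 202 and 174 with 2 copies. Its log2 fold changes against wild type were -0.04 ± 0.10 (adjusted p = 0.789) and 0.15 ± 0.10 (adjusted p = 0.244). Slc3a2 ran from 119 to 142.7 CPM over the 6 libraries, with log2 fold changes of -0.13 ± 0.10 and -0.10 ± 0.10 (adjusted p = 0.328 and 0.428). Ddit3 ran from 16.2 to 19.2 CPM, with changes of 0.04 ± 0.13 and 0.06 ± 0.13 (adjusted p = 0.805 and 0.688). Of these 3 genes Atf4 and Ddit3 overlapped with wild type in both transgenic groups, and Slc3a2 overlapped with 2 copies.

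Slc7a5 stood at 14.8 and 9.80 CPM in wild type white fat, 31.3 and 27.5 with 1 copy and 46.9 and 42.6 with 2 copies. The 3 groups were fully apart and in the order of copy number. The log2 fold change was 1.26 ± 0.20 with 1 copy (adjusted p = 0.00366) and 1.87 ± 0.20 with 2 copies (adjusted p = 0.000542), and both were called in all 6 fits without 1 library (adjusted p up to 0.0268 and 0.00505). Between 2 copies and 1 copy it was 0.61 ± 0.19 (adjusted p = 0.167).

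Asns, the asparagine enzyme, had values of 77.6 and 62.4 CPM in wild type, 40.7 and 34.4 with 1 copy and 28.4 and 20.7 with 2 copies. Here too the groups were apart and ordered by copy number, in the opposite direction to Slc7a5. Its log2 fold change was -0.90 ± 0.19 with 1 copy (adjusted p = 0.0107) and -1.51 ± 0.19 with 2 copies (adjusted p = 0.00116). The 1-copy call was lost without 1-copy library 2 (adjusted p = 0.0673), and the 2-copy call was kept in all 6 fits.

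The serine enzymes did not move with Asns. Phgdh was at 89.9 and 85.8 CPM in wild type, 110 and 121 with 1 copy and 72.8 and 82.7 with 2 copies. It rose with 1 copy (0.39 ± 0.10, adjusted p = 0.0163), and that call was lost without 1-copy library 2 (adjusted p = 0.0997), without wild type library 2 (0.0527) and in the fit of all 12 libraries (0.116). With 2 copies it was -0.18 ± 0.10 against wild type (adjusted p = 0.16). Psat1 was at 78.7 and 56.8 CPM in wild type, 58.8 and 60.5 with 1 copy and 61.6 and 58.6 with 2 copies. The wild type pair spanned both transgenic groups, and the changes of -0.18 ± 0.15 and -0.17 ± 0.15 were not called (adjusted p = 0.345 and 0.362). Without wild type library 2 they were called (-0.40 and -0.39, adjusted p = 0.0133 and 0.0114), and without wild type library 1 they had the opposite sign and were not.

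Sesn2 was at 36.1 and 28.6 CPM in wild type white fat, 19.7 and 14.2 with 1 copy and 14.0 and 11.7 with 2 copies. Both transgenic pairs lay below wild type. Its log2 fold change was -0.93 ± 0.20 with 1 copy (adjusted p = 0.011), lost without 1-copy library 2 (0.0567), and -1.33 ± 0.21 with 2 copies (adjusted p = 0.00205), called in all 6 fits. Chac1, covered by 23 to 73 reads a library, was at 3.88 and 2.62 CPM in wild type, 1.89 and 1.45 with 1 copy and 1.17 and 1.28 with 2 copies. Its changes were -0.95 ± 0.32 (adjusted p = 0.0483) and -1.40 ± 0.33 (adjusted p = 0.0112). The 1-copy call was lost by DESeq2 (adjusted p = 0.061), with no filter (0.0566) and without any 1 of 5 libraries, 1-copy library 1 (0.0918), 1-copy library 2 (0.196), 2-copy library 1 (0.0848), 2-copy library 2 (0.0827) and wild type library 1 (0.218). The 2-copy call was lost without 2-copy library 1 (0.0642), 2-copy library 2 (0.0567) or wild type library 1 (0.0552).

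Trib3 was at 16.8 and 10.2 CPM in wild type white fat, 6.00 and 6.44 with 1 copy and 7.57 and 3.45 with 2 copies. All 4 transgenic libraries lay below both wild type ones. It fell with 2 copies (-1.30 ± 0.42, adjusted p = 0.0397) and was at -1.12 ± 0.42 with 1 copy (adjusted p = 0.0696, 0.0207 by DESeq2). The 2-copy call was lost without 1-copy library 1 (0.0701), 1-copy library 2 (0.0712), 2-copy library 2 (0.111) or wild type library 1 (0.158).

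Without 1-copy library 2, Slc7a5 alone kept its call for 1 copy in white fat, and fewer of all genes were called in that fit too. For 2 copies fewer of the 10 genes, and fewer of all genes, were called without 2-copy library 2 or without wild type library 1. In white fat edgeR called 0 of 10 genes between 2 copies and 1 copy (3 at an unadjusted p under 0.05, 1 by DESeq2), against 1.86% of all genes, 0.0327% higher and 1.83% lower. Groups did not overlap for 6 of 10 genes there (56.1% of all genes). Phgdh came nearest, at -0.57 ± 0.10 (adjusted p = 0.0507), and it was called by DESeq2 (0.00076). Leaving out wild type library 1 or 2 brought calls of Phgdh and Slc7a5, and more of all genes were called in those fits too.

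The pathway lists in white fat held calls in both directions against wild type, apart from the bZIP list with 1 or 2 copies and the ER list with 2 copies. Their counts stand beside 61% of all genes called with 2 copies, 32.1% higher and 28.9% lower, and several lists, such as transporters and stress outputs, were near those shares. Of 10 serine, glycine and one-carbon genes, 4 rose and 5 fell with 2 copies, led by Mthfd2, Mthfd1l and Shmt2, mitochondrial enzymes of one-carbon metabolism. Mthfd2 was at 9.87 and 7.82 CPM in wild type, 31.2 and 35.4 with 1 copy and 47.9 in both 2-copy libraries, and rose by 2.44 ± 0.14 on the log2 scale with 2 copies (adjusted p = 5.83e-05). Mthfd1l rose by 3.16 ± 0.21 and Shmt2 by 1.42 ± 0.09. Of the other stress bZIP factors 6 of 10 fell and 0 rose. The smallest p was that of Atf5, a relative of Atf4, at 277 and 316 CPM in wild type and 116 and 96.6 with 2 copies (-1.48 ± 0.12, adjusted p = 0.000215), with Cebpg (-0.69 ± 0.07), the C/EBP partner of ATF4, and Jdp2 (-1.22 ± 0.19) next.

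Amino acid transporters had 7 of 19 higher and 5 lower with 2 copies. Slc7a11, the cystine importer xCT and a partner of the same heavy chain, was at 0.372 and 0.161 CPM in wild type white fat, 24.1 and 19.9 with 1 copy and 39.5 and 34.5 with 2 copies (adjusted p = 1.43e-05 for 2 copies). Slc38a1 (2.49 ± 0.19) and Slc7a1, the cationic amino acid carrier CAT1 (1.24 ± 0.08), also rose. Among 20 tRNA synthetases 4 rose, Vars (1.16 ± 0.08), Farsa (0.54 ± 0.11) and Qars (0.37 ± 0.08, not called without 2-copy library 2, adjusted p = 0.0649) with the smallest p, and 4 fell, and of 15 genes of eIF2, its kinases and phosphatase 3 rose, among them Ppp1r15a, the phosphatase subunit GADD34 (1.04 ± 0.15), and the kinase gene Eif2ak3 (0.41 ± 0.09, not called without 2-copy library 2, adjusted p = 0.0567), and 2 fell, among them Eif2b3 (-0.53 ± 0.10).

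Of 17 tested stress outputs 5 rose and 5 fell with 2 copies in white fat. Sesn3, a relative of Sesn2, rose by 2.31 ± 0.15 while Sesn2 fell, Bbc3 rose by 1.37 ± 0.13, and Eif4ebp1, a brake on translation and an ATF4 target, fell by 1.66 on the log2 scale (SE 0.16). The list of ER chaperones and unfolded protein response genes had 0 higher and 4 of 16 lower. Those with the smallest p were the co-chaperone Dnajb9 (-0.89 ± 0.17), Xbp1, a bZIP transcription factor of the unfolded protein response (-0.86 ± 0.18), and Hspa5, the chaperone BiP (-0.65 ± 0.20). Hspa5 was not called without wild type library 1 (adjusted p = 0.119), 2-copy library 1 (0.148) or 2-copy library 2 (0.06), and Xbp1 not without 2-copy library 2 (0.0549). Of 10 proline, asparagine, glutamine and transsulfuration enzymes 2 rose, among them the proline enzyme Aldh18a1 (1.02 ± 0.13), and 4 fell, Gpt2 (-1.39 ± 0.24) with the smallest p.

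With 1 copy in white fat 52% of all genes were called, 28.4% higher and 23.6% lower. The list counts higher and lower were 4 and 4 of 10 for the one-carbon list, 0 and 6 of 10 for the bZIP factors, 7 and 4 of 19 for transporters, 1 and 3 of 20 for tRNA synthetases, 3 and 3 of 15 for the eIF2 list, 5 and 4 of 17 for stress outputs, 1 and 4 of 16 for the ER list and 2 and 3 of 10 for the proline list. Those with the smallest p included Mthfd2 (1.91 ± 0.14), Slc7a11 (6.34 ± 0.29), Slc7a1 (1.04 ± 0.08), Slc38a1 (2.10 ± 0.18), Vars (0.97 ± 0.08), Sesn3 (2.25 ± 0.15) and Bbc3 (1.12 ± 0.13) among those that rose. Atf5 (-1.05 ± 0.12), Jdp2 (-1.33 ± 0.19), Cebpg (-0.48 ± 0.07), the proline enzyme Pycr1 (-1.31 ± 0.23) and the glutamine synthetase Glul (-1.31 ± 0.23) were among those that fell. All 8 lists together had 1 call between 2 copies and 1 copy. This was the glutamine carrier Slc1a5 (-0.78 ± 0.12, adjusted p = 0.043), and it was not called without any 1 of the 4 transgenic libraries (adjusted p = 0.274 and 0.145 without 1-copy libraries 1 and 2, 0.169 and 0.188 without 2-copy libraries 1 and 2).

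The depots themselves differed for most of the 10 genes. In wild type mice Atf4, Slc3a2, Asns, Ddit3 and Sesn2 were higher in brown fat, and Slc7a5, Psat1, Phgdh and Chac1 were lower. These were 9 of 10 genes, against 61.1% of the 15559 genes in the fit of all 12 libraries, 29% higher and 32.1% lower. The log2 difference, brown minus white, was 0.89 ± 0.10 for Atf4, 0.55 ± 0.11 for Slc3a2, 0.65 ± 0.15 for Asns, 1.03 ± 0.12 for Ddit3 and 1.08 ± 0.28 for Sesn2. It was -3.76 ± 0.28 for Slc7a5, -3.20 ± 0.26 for Psat1, -2.26 ± 0.21 for Phgdh and -0.99 ± 0.36 for Chac1. On this scale asparagine synthetase and the serine enzymes thus had opposite depot order. The scaling factors of the 12-library fit were 0.804 and 0.833 in wild type brown and 1.116 and 1.112 in wild type white libraries. Each depot's own fit does not scale the depots to each other. There the wild type brown and white means were 142 and 140 CPM for Slc3a2 and 75.7 and 70.0 for Asns. The depot differences of Slc3a2 and Asns thus rested on the scaling between depots.

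Chac1 (adjusted p = 0.035) and Sesn2 (0.00841) were the wild type depot differences that lost their call in some fits without 1 library. For Chac1 some of the libraries left out were not part of the wild type comparison. Chac1 was lost by DESeq2 (0.0559) and without brown library 1 (0.0579), brown library 2 (0.167), white library 1 (0.216), white 2-copy library 1 (0.0513) or white 2-copy library 2 (0.0508). Sesn2 was lost without brown library 2 (0.0689) or white library 2 (0.0611). The other 7 were called in all 12 fits that left out 1 library. On the scale of 12 libraries, wild type white fat held epithelial genes at 1470 and 1769 summed CPM and macrophage genes at 1702 and 876. Wild type brown fat held at most 2.27 and 229. The skeletal muscle list went the other way, at 3985 and 1602 summed CPM in wild type brown and 14.2 and 12.6 in wild type white fat. The part of these lists in the depot differences was not tested.

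With 1 copy 9 of 10 genes differed between depots, 4 higher in brown fat and 5 lower, against 70.1% of all genes, 29.4% higher and 40.6% lower. Slc3a2 was now lower in brown than in white fat (-1.13 ± 0.12, adjusted p = 1.15e-05), the opposite of its wild type order on this scale. In CPM of each depot's own fit its brown and white means were 40.2 and 128 with 1 copy. They were 142 and 140 in wild type, so the wild type order rested on the scaling between depots. Atf4 was at -0.26 ± 0.10 (adjusted p = 0.0339), close to the median of all genes, -0.24. Under median-of-ratios scaling that median was -0.13 and Atf4 was not called (-0.15, adjusted p = 0.201), nor was it by DESeq2 (0.224) or without 1-copy brown library 1 (0.0769) or 2 (0.153) or 1-copy white library 1 (0.152) or 2 (0.0549). Trib3 was higher in brown fat by 1.23 ± 0.35 (adjusted p = 0.0102), lost without 1-copy brown library 2 (0.0765) or 1-copy white library 1 (0.0541), and Sesn2 by 0.85 ± 0.29 (0.0264), lost without 1-copy brown library 2 (0.204) or 1-copy white library 2 (0.153).

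With 2 copies 9 of 10 differed, 6 higher in brown fat and 3 lower, against 74.4% of all genes, 32.1% higher and 42.3% lower. On the scale of 12 libraries Atf4 (0.52 ± 0.10) and Slc3a2 (0.74 ± 0.11) were again higher in brown fat, and Asns by 2.06 ± 0.16, a fold of 4.17. In CPM of each depot's own fit the 2-copy brown and white means were 186 and 188 for Atf4 and 151 and 131 for Slc3a2. The depot difference of Atf4 with 2 copies thus rested on the scaling between depots. Trib3 was higher in brown fat by 1.13 ± 0.35 (adjusted p = 0.0148), lost without 2-copy brown library 1 (0.0596) or 2-copy white library 2 (0.101). Slc7a5 was lower in brown fat in every genotype, 13.6-fold in wild type, 72.7-fold with 1 copy and 39.5-fold with 2 copies, and its few reads in brown fat limit how well those folds are known.

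Whether the change with genotype differed between the 2 depots was tested as an interaction, the log2 change in brown fat minus that in white fat. With 1 copy this test also called 14 of 14 lymphocyte, 16 of 18 muscle and 0 of 10 epithelial genes. The part of cell makeup in the interactions of the 10 genes was not tested. With 1 copy 6 of the 10 genes had a called interaction, 3 lower and 3 higher, against 32.6% of all genes, 13.8% higher and 18.8% lower. Atf4 (-1.15 ± 0.14, adjusted p = 0.00031), Slc3a2 (-1.68 ± 0.16, adjusted p = 9.26e-05) and Slc7a5 (-2.42 ± 0.50, adjusted p = 0.00533) changed less upward or more downward in brown than in white fat, and these 3 were called in all 12 fits that left out 1 library. For Slc7a5 the brown side rested on 13 and 17 reads in wild type and 6 and 3 with 1 copy. Its change within brown fat was not called by edgeR (-1.18 ± 0.59, adjusted p = 0.3). Asns (0.71 ± 0.22, adjusted p = 0.0303), Trib3 (1.71 ± 0.49, adjusted p = 0.0244) and Chac1 (1.53 ± 0.52, adjusted p = 0.0446) had interactions of the opposite sign. The latter 3 were lost in 6, 5 and 9 of those 12 fits (adjusted p up to 0.109, 0.0904 and 0.149). Without 1-copy white library 2 or wild type white library 1, fewer of the 10 and fewer of all genes were called.

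With 2 copies 4 of the 10 genes had a called interaction, 2 in each direction, against 42.2% of all genes, 20.6% higher and 21.7% lower. Slc7a5 (-1.54 ± 0.42, adjusted p = 0.0144) and Phgdh (-1 ± 0.30, adjusted p = 0.0233) were lower, and Asns (1.41 ± 0.22, adjusted p = 0.000635) and Trib3 (1.61 ± 0.49, adjusted p = 0.0244) higher. Asns was called in all 12 fits that left out 1 library. Slc7a5 was lost without wild type brown library 1 (0.0552), Phgdh in 4 fits and Trib3 in 5 (adjusted p up to 0.0829 and 0.0865). Without 2-copy brown library 1, fewer of the 10 and fewer of all genes were called. Atf4 (-0.37 ± 0.14, adjusted p = 0.0513) and Slc3a2 (0.19 ± 0.16, adjusted p = 0.378) were not called with 2 copies. Here 14 of 14 lymphocyte, 11 of 18 muscle and 0 of 10 epithelial genes were called, and their part was not tested.

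The heavy chain Slc3a2, which also acts in integrin signalling, carries amino acids only when joined to a light chain, so its level was set beside those of 6 light chains per kb of exon, a set picked after values had been seen. In brown fat the most abundant light chain was Slc7a6, the y+LAT2 exchanger, at 22 and 30.8 CPM per kb in wild type, 23.8 in both 1-copy libraries and 16.9 and 27.7 with 2 copies. It was not called with 1 copy (-0.16 ± 0.26, adjusted p = 0.781), where the heavy chain fell. The level of Slc3a2 divided by the sum of the 6 light chains was 1.40 and 1.16 in wild type brown fat, 0.418 and 0.433 with 1 copy and 2.04 and 1.14 with 2 copies. In brown fat, then, this ratio of RNA levels was above 1 in wild type and 2-copy libraries and below 1 in both 1-copy libraries. The lengths were those of all annotated exons merged, so the side of 1 on which a near ratio falls depends on them. Protein levels of the chains were not measured.

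In white fat the light chain makeup was different. Slc7a10, the Asc-1 carrier of small neutral amino acids and a known white adipocyte surface protein, led at 74.7 and 47.5 CPM per kb in wild type, 36.0 and 38.4 with 1 copy and 28.6 and 20.7 with 2 copies. It fell with 2 copies (-1.31 ± 0.26, adjusted p = 0.00796). Slc7a5 rose from 3.29 and 2.20 CPM per kb in wild type to 7.02 and 6.13 with 1 copy and 10.5 and 9.56 with 2 copies, and Slc7a7, the y+LAT1 exchanger, rose by 0.95 ± 0.22 with 2 copies (adjusted p = 0.0113). Slc7a8, the LAT2 carrier, fell by 1.53 on the log2 scale (SE 0.35, adjusted p = 0.0127). The ratio of Slc3a2 to the 6 light chains stayed between 0.343 and 0.600 in the 6 white libraries. The ratio to Slc7a5 alone went from 9.97 and 15.1 in wild type to 4.45 and 4.75 with 1 copy and 3.19 and 2.94 with 2 copies.

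**Figure D4:**
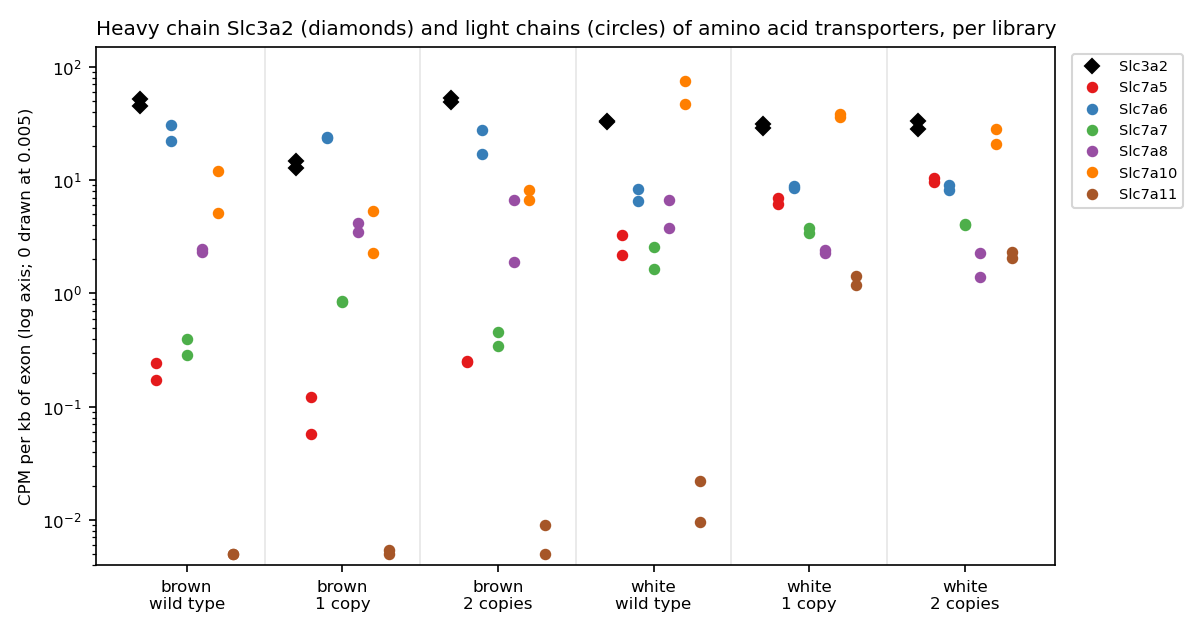
CPM per kb of exon (log axis) of the heavy chain Slc3a2 (black diamonds) and 6 light chains (circles) in each library of the 6 groups; values of 0 are drawn at 0.005. In brown fat the diamonds drop from 45.1 and 51.7 in wild type to 12.8 and 14.8 with 1 copy, below Slc7a6, while in white fat they stay at 28.1 to 33.4 and Slc7a10 and Slc7a5 approach each other as copy number goes up.

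The genes whose pattern was most like that of Atf4 were ranked by the lower of 2 Pearson correlations of log2 CPM, over the 6 brown and over the 6 white libraries, among 8921 genes. Pelo, Mex3c, Ythdf1, Dlgap4 and Desi2 came first, with lower values of 0.88 to 0.861. Slc3a2 was close to Atf4 in brown fat (r = 0.961) and less so in white fat (r = 0.406), and ranked 545. Sesn2 (0.759 and -0.227) and Asns (0.782 and -0.294) were positive in brown and negative in white fat. Ddit3 was at -0.847 in brown and 0.141 in white fat, and Phgdh at -0.183 and -0.715. Slc7a5, Trib3, Chac1 and Psat1 did not reach the mean log2 CPM of 3 required in each depot and were not ranked. With 6 libraries in 3 groups the brown values mostly reflect the group means. In white fat the group means of Atf4 ran only from 165 to 188 CPM, and the 2-copy pair was at 202 and 174. The white values, and ranks set by them, thus also reflect differences within pairs. All are given as a description.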

How the data were processed

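Polyadenylated RNA was sequenced from 12 libraries, 2 for each of 3 genotypes in each of 2 depots. The authors deposited whole-number read counts for each gene. STAR, featureCounts and Subread are the tools and mm10 the build named in the submitters' processing notes. Versions, annotation and strand setting are not given in the sources used here. RNA was extracted with Trizol and RNeasy columns and libraries were made with a stranded mRNA kit, per the labels' protocols. Replicate numbers follow sample order and pair nothing.

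Genotypes were compared within each depot (6 libraries, 3 residual degrees of freedom) with edgeR 4.0.16: filterByExpr, TMM, robust quasi-likelihood test, two-sided, Benjamini-Hochberg adjustment over all genes tested, threshold 0.05. Depots and interactions used 1 fit of 12 libraries (6 residual degrees of freedom). CPM values use the TMM factors of the fit, and the SE is the size of the log2 fold change divided by the square root of F. The scripts were tested on simulated data. Replicates correlated at 0.985 to 0.993 and differed by more than counting noise. Totals of 15679884 to 31814056 counts mean that genes of a few reads are limited by counting error.

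The 10 genes, the lists and the markers were chosen with earlier results of these data known. The named genes are all 10 in every comparison, from each pathway list the called members with the smallest adjusted p (at most 3 for each genotype comparison within a depot, and not all of these for 1 copy in white fat), the 5 genes most like Atf4 (mean log2 CPM of at least 3 in each depot), and marker genes where a list moved with a result. Positions and exon lengths came from a GENCODE annotation of GRCm38, promoter windows from RefSeq. Alternatives were median-of-ratios scaling, DESeq2 1.42.0, no filter, a mean CPM of at least 1, 1 fit of 12 libraries and leaving out each library. R 4.3.3, Python 3.11.15 and matplotlib 3.10.9 were used.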

Additional observations from a re-analysis of the deposited data

Results flagged for a closer look

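In all, 10 results were flagged. In each, the change with genotype differed between brown and white fat by a test of that difference (log2 change in brown minus log2 change in white, edgeR on 12 libraries, 2 per group). With 1 copy these were 6 of the 10 genes, against 32.6% of all genes. They were Atf4 at -1.15, Slc3a2 at -1.68 and Slc7a5 at -2.42, and with the opposite sign Asns at 0.71, Trib3 at 1.71 and Chac1 at 1.53. With 2 copies these were 4 of the 10 genes, a share no larger than the 42.2% of all genes. They were Slc7a5 at -1.54, Asns at 1.41, Trib3 at 1.61 and Phgdh at -1. Asns, Trib3 and Chac1 with 1 copy, and Slc7a5, Trib3 and Phgdh with 2 copies, were not called in every fit that left out 1 library. Atf4 and Slc3a2 differed in brown fat with 1 copy, and the values of Asns, Trib3 and Chac1 came mostly from white fat, where each was lower in the transgenic libraries. Cell makeup also moved with genotype, and its part in the flagged results was not tested. No group had enough libraries for a test of single outlying libraries.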

How the results depend on the processing

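The counts of called genes among the 10 kept within 1.5 times their value in all comparisons under median-of-ratios scaling. They moved from 0 to 1 for 2 copies against wild type in brown fat (DESeq2, no filter and the fit of 12 libraries) and from 0 to 1 for 2 copies against 1 copy in white fat (DESeq2, no filter and mean CPM of at least 1); the gene was Phgdh each time. Leaving out 1 library gave 2 for 1 copy and 0 for 2 copies against wild type in brown fat, 1 to 2 for 2 copies against 1 copy there, 1 to 5 and 3 to 6 for 1 and 2 copies against wild type and 0 to 2 for 2 copies against 1 copy in white fat, 7 to 9, 6 to 9 and 8 to 9 for the depots with 0, 1 and 2 copies, and 3 to 6 and 2 to 4 for the interactions with 1 and 2 copies. Fits without 1 library have fewer residual degrees of freedom, and a lone library is then assumed to vary like the others. The share of all genes called also rose or fell from fit to fit. Calls lost or gained among the 10 genes in these fits therefore cannot be read as a trait of those genes.

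Sign changes occurred only for values that were not called. The Ddit3 interaction with 2 copies, -0.11, became 0.00548 under median-of-ratios scaling and 0.00658 by DESeq2, where the median over all genes moved from -0.03 to 0.09 (and from 0.01 to 0.15 with 1 copy). The Chac1 difference between depots with 2 copies, 0.01, became -0.00148 with no filter and -0.0111 with a mean CPM of at least 1. Without 1 library the log2 change in brown fat ran from -0.557 to 0.0651 for Phgdh with 1 copy, from -0.131 to 0.0403 for Ddit3 with 2 copies, and from -0.372 to 0.382 for Psat1 between 2 copies and 1. In white fat with 1 copy it ran from -0.104 to 0.0337 for Atf4, -0.401 to 0.0714 for Psat1 and -0.0871 to 0.151 for Ddit3, and with 2 copies from -0.238 to 0.0236 for Slc3a2 and -0.39 to 0.0832 for Psat1. Between 2 copies and 1 in white fat it ran from -0.107 to 0.154 for Slc3a2, -0.848 to 0.285 for Trib3, -0.0239 to 0.0478 for Psat1 and -0.0932 to 0.153 for Ddit3. The depot difference of Chac1 with 2 copies ran from -0.37 to 0.299, and the interactions from -0.598 to 0.111 (Psat1) and -0.552 to 0.0343 (Sesn2) with 1 copy and from -0.599 to 0.0419 (Psat1) with 2 copies. The cause was not tested.

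No paired analysis was possible because the labels give library numbers only and no number or mouse shared between groups. With 2 libraries a group, differences smaller than the spread of a pair could not be seen, and for Slc7a5 and Chac1 in brown fat the number of reads is the limit.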
